A study of Homo sapiens with 3 samples.

Results

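The 6 genes described here are HK2, PKLR, TXNIP, PDK4, IRS2 and PIK3R1, which act in glucose use and insulin signalling. They were chosen by their CPM and log2 ratios in these same libraries, since they were listed by symbol with earlier results in view, so the values below are a description with no test. Each gene is the sum of its NM_ rows (RefSeq messenger RNA transcripts), and they are 6 of 6961 genes with such rows. The libraries were 1 of PLC cells with HKDC1 knocked down (shHKDC1), 1 of PLC cells with RBBP5 knocked down (shRBBP5) and 1 of PLC cells labelled NTC, taken as the control. The labels describe PLC as a line of liver cancer cells from human, and all groups were grown in DMEM with serum and antibiotics. The sources used here do not give the hairpins, the number of clones or the time after knockdown. The libraries address which genes change in expression when either protein is reduced.

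Cells take up glucose and trap it by phosphorylation, the step carried out by hexokinases, and pyruvate kinase closes glycolysis. Pyruvate dehydrogenase kinases then hold pyruvate back from the mitochondrial citrate cycle, and TXNIP, an arrestin-like protein, lowers glucose uptake and binds thioredoxin. Insulin acts through its receptor, the docking protein IRS2 and the PI3-kinase, whose p85 alpha regulatory subunit is encoded by PIK3R1. Forkhead FOXO factors, which insulin restrains, are known to raise IRS2 and PDK4 in the fasted liver. HKDC1 is itself a hexokinase family protein, and RBBP5 is a core subunit of the complexes that methylate histone H3 at lysine 4.

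There was 1 library per group, so no difference between libraries has a replicate check and no p-value is given. Totals were 115556160 units in shHKDC1, 154533913 in shRBBP5 and 161750310 in NTC, and a unit is an estimated count as deposited. Low values piled up at 4 units, so a sequenced fragment was taken as 4 units. Anonymous assembled loci held 99.6% of the units in shHKDC1, 99.5% in shRBBP5 and 99.4% in NTC. Only 900 genes with every NM_ transcript on a row of its own reached a mean of 1 CPM. CPM here is the counts-per-million value of the deposited units after TMM scaling of the libraries. Each value covers the gene's own RefSeq rows, and whether an anonymous locus holds more of its reads was not tested. HKDC1 and RBBP5 had 0 RefSeq rows, so the knockdowns themselves could not be checked on rows of their own. Of 20 hepatocyte markers 2 had rows, FGB and F5, and they summed to 1.59 CPM in shHKDC1, 5.40 CPM in shRBBP5 and 5.90 CPM in NTC. The liver origin of the line could therefore be checked on few markers, and these were lower in shHKDC1.

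Some markers of other cell types also differed from NTC, in shRBBP5 as well as in shHKDC1. The cholangiocyte keratin KRT7 stood at 1.88 CPM in shHKDC1, 0.150 in shRBBP5 and 0.177 in NTC, and the osteopontin gene SPP1 of the same list at 0.242, 1.86 and 2.0 CPM. The sums of that list, with 3 of 6 genes on rows, were 2.15 CPM in shHKDC1, 2.01 in shRBBP5 and 2.2 in NTC. The endothelial list, with 5 of 6 genes on rows, summed to 0.802 CPM in shHKDC1, 0.163 in shRBBP5 and 0.160 in NTC, with VWF at 0.706, 0.0188 and 0.0171 CPM and KDR at 0. KRT7 and VWF had means below 1 CPM, and VWF rested on 18, 1 and 1 fragments. Fibroblast and stellate genes, with 7 of 9 on rows, summed to 1.61, 1.86 and 0.954 CPM in shHKDC1, shRBBP5 and NTC, with COL1A2 at 0. Of these, only PDGFRB reached a mean of 1 CPM, at 1.48, 1.56 and 0.606 CPM, so it was higher in both knockdowns than in NTC. The leukocyte genes PTPRC, CD3E and MS4A1 were at 0 in every library, and that list, with 6 of 8 genes on rows, summed to 0.967, 0.884 and 0.554 CPM. Its gene ITGAM was at 0.657, 0.827 and 0.383 CPM. Adipocyte and muscle genes, 5 of 6 on rows, summed to 0.155, 0.357 and 0.0628 CPM, with ADIPOQ and LEP at 0. Among them DES was at 0.0290, 0.226 and 0 CPM, on 1, 9 and 0 fragments. The part of these shifts in the results below was not tested. In such bulk libraries, fewer cells of a type and less RNA per cell cannot be told apart.

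A gene was called higher or lower when it differed at least 2-fold and the 95% interval of its log2 ratio excluded 0. The intervals, given in brackets, are exact Clopper-Pearson intervals on fragments and cover counting error only. By that rule HK2 and IRS2 were higher and PKLR, TXNIP and PIK3R1 were lower in shHKDC1 than in NTC, and PDK4 was neither. Among the 900 named genes, 8.67% were called higher and 23.9% lower in that comparison, 32.6% in all, and nothing is read from the members' count against it. In shRBBP5 against NTC, TXNIP was higher and HK2 and PDK4 were lower, where 2.67% of named genes were called higher and 9.44% lower, 12.1% in all. All 6 genes reached a mean of 1 CPM, from 1.17 CPM for PDK4 to 3.75 CPM for PIK3R1. The median of the named genes was 2.75 CPM, and that of the 12355 anonymous loci at or above the same minimum was 28.2 CPM.

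**Figure D1:**
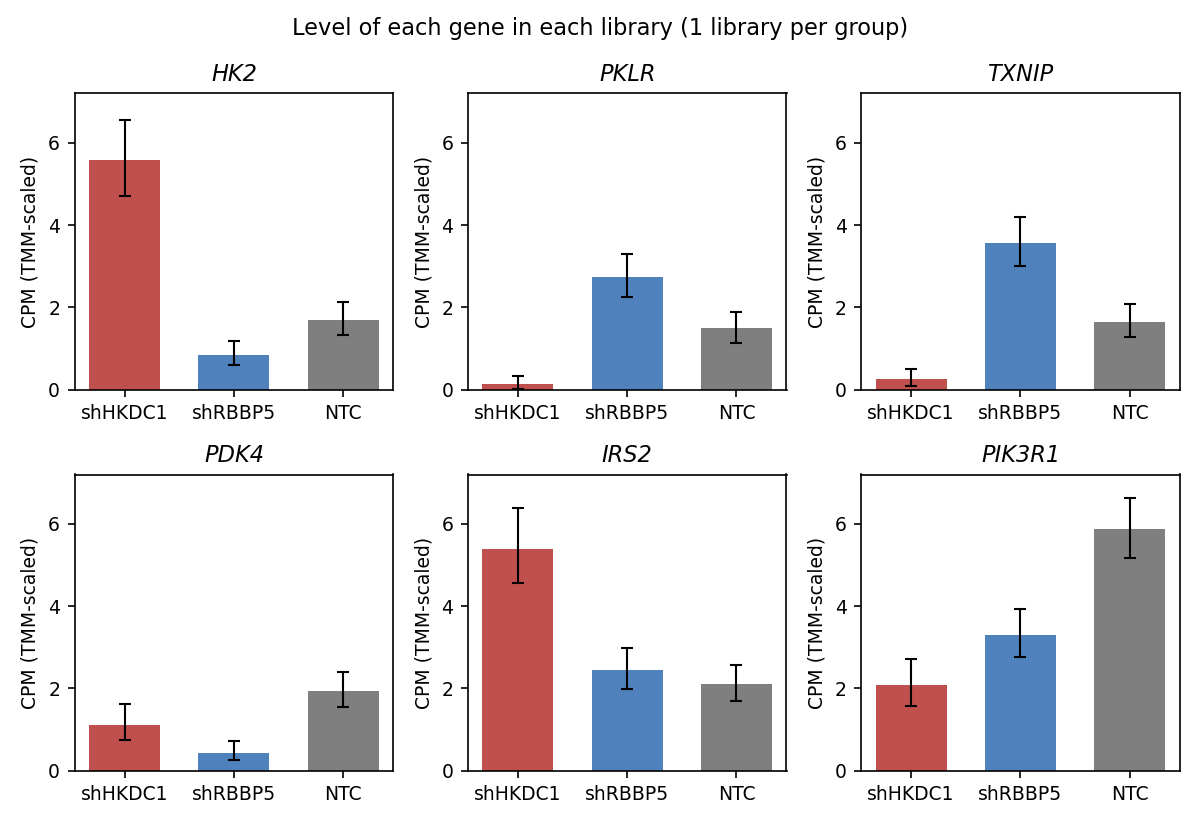
CPM (TMM-scaled) of the 6 genes in the shHKDC1, shRBBP5 and NTC libraries, 1 bar per library, with exact 95% Poisson intervals on fragments as error bars. HK2 and IRS2 are highest in shHKDC1, PKLR and TXNIP highest in shRBBP5 and nearly absent from shHKDC1, and PDK4 and PIK3R1 highest in NTC.

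Among the enzymes of glycolysis, HK2, a hexokinase that many tumours express, stood at 5.59 CPM in shHKDC1, 0.840 CPM in shRBBP5 and 1.69 CPM in NTC. The Poisson intervals of the 3 levels, 4.70 to 6.56, 0.590 to 1.19 and 1.33 to 2.12 CPM, did not overlap. The gene was 3.30-fold higher in shHKDC1 than in NTC (log2 1.72 [1.31 to 2.14]), the rank of 38 from the highest among the 900 named genes. It was 2.01-fold lower in shRBBP5 than in NTC (log2 −1.01 [−1.62 to −0.38]), which lies just inside the 2-fold limit. That call ended at −0.9998 with DESeq2 size factors and at −0.98 with a pseudocount of 5 units. Between the knockdowns, shHKDC1 had 6.63 times the HK2 level of shRBBP5 (log2 2.73 [2.16 to 3.29]). All of its units were on the row NM_000189.5, while NM_001371525.1 held 0 in every library. A pseudogene on chromosome X, HK2P1, could share reads of HK2, which was not tested. The lincRNA AC019069.1 overlaps HK2 on the opposite strand and could also share reads, since no source used here gives the strand setting.

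PKLR encodes the pyruvate kinase of liver and red cells, made as an L-type and an R-type enzyme from separate starts. Its level was 0.126 CPM in shHKDC1, 2.74 CPM in shRBBP5 and 1.49 CPM in NTC, on 3, 109 and 65 fragments. It was 11.4-fold lower in shHKDC1 than in NTC (log2 −3.52 [−5.99 to −2.07]), and the width of that interval comes from the 3 fragments. In shRBBP5 it was 1.84-fold higher than in NTC (log2 0.88 [0.42 to 1.35]), just outside the limit. By point estimate the distance between the knockdowns was the greatest of the 6 genes, at log2 −4.39 [−6.86 to −2.97] for shHKDC1 over shRBBP5. That was the rank of 6 from the lowest of 900. The TXNIP interval in that comparison, −5.41 to −2.78, overlapped it, so the order of PKLR and TXNIP is not settled. HCN3, a channel gene that overlaps PKLR on the opposite strand, was at 4.24 CPM in shHKDC1, 9.83 CPM in shRBBP5 and 7.82 CPM in NTC, so its order over the libraries was the same as that of PKLR. Reads of a gene and its antisense partner cannot be told apart without strand.

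The units of PKLR were divided unequally between its 2 RefSeq rows. The L-type row NM_181871.4 held 0 units in shHKDC1, 179 in shRBBP5 and 261 in NTC, while the R-type row NM_000298.6 held 13, 258 and 0 units. In NTC all 65 fragments of the gene were assigned to the L-type row. In shRBBP5 the R-type row took 59% of the gene, and the L-type row stood at 1.12 CPM in shRBBP5 and 1.49 CPM in NTC, on 45 and 65 fragments. The rows have separate starts, and what else differs between them was not compared. Their division is an estimate from few reads. In shHKDC1 the gene had only 3 fragments, so the upper limit on the share of the L-type row there was 100%.

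**Figure D2:**
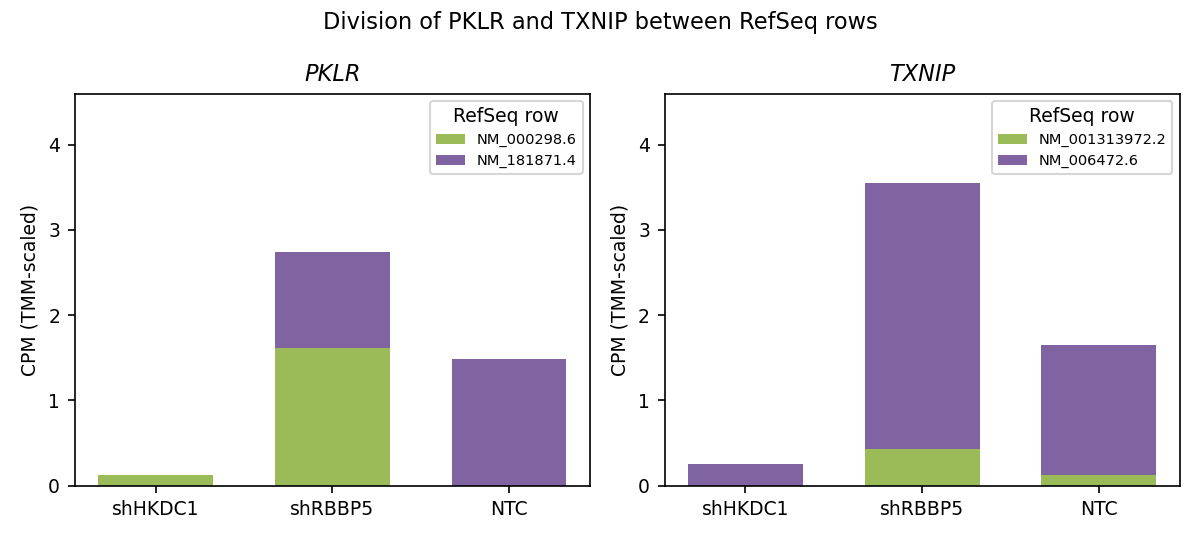
CPM (TMM-scaled) of PKLR and TXNIP in the 3 libraries, stacked by RefSeq row. In PKLR the R-type row NM_000298.6 holds all 13 units in shHKDC1, appears in shRBBP5 and is empty in NTC. In TXNIP the row NM_006472.6 holds 88.0% of the gene in shRBBP5 and 92.4% in NTC.

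TXNIP, whose transcription is known to follow glucose through the factors MondoA and ChREBP, had the same order over the libraries as PKLR. It stood at 0.251 CPM in shHKDC1, 3.55 CPM in shRBBP5 and 1.65 CPM in NTC, on 6, 142 and 72 fragments, and the intervals of the 3 levels did not overlap. The gene was 6.43-fold lower in shHKDC1 than in NTC (log2 −2.69 [−4.32 to −1.63]) and 2.16-fold higher in shRBBP5 than in NTC (log2 1.11 [0.69 to 1.54]). That second ratio ranked 20 from the highest of 900. For shHKDC1 over shRBBP5 the log2 ratio was −3.80 [−5.41 to −2.78]. Its main row NM_006472.6 held 26 units in shHKDC1, 499 in shRBBP5 and 266 in NTC, and the shorter NM_001313972.2 held 0, 68 and 22 units. Both rows held more units in shRBBP5 than in NTC.

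PKLR and TXNIP are both textbook targets of ChREBP, so the 250 bases before their starts were searched in the RefSeq promoter table (GRCh38.p14, a different build from the hg19 of the counts). The motifs were the E-box CACGTG, the forkhead motif GTAAACA, and a pair of half-sites, CACGNG and CNCGNG with 5 bases between them, on both strands. The pair was written after the sequences had been seen. The stretches that hold matches are printed 5′ to 3′ on the strand of the gene, with matches in capitals, because both genes hold the paired half-sites. In PKLR these lie at the L-type start, whose row held the most units in NTC, while the TXNIP rows held the most in shRBBP5.
PKLR, L-type start, chr1:155301037-155301103, minus strand: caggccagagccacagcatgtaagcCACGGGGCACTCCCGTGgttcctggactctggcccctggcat
PKLR, R-type start, chr1:155301605-155301660, minus strand: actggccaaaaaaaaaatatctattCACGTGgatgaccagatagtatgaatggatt
TXNIP, NM_006472 start, chr1:145996626-145996728, minus strand: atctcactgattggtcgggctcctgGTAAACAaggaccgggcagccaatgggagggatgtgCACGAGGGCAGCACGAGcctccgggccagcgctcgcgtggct

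In the L-type PKLR stretch the capitals are the paired half-sites, from 126 to 110 bases before the start, which match on both strands. In the R-type stretch they are an E-box, from 197 to 192 bases before the start. TXNIP holds the forkhead motif, from 124 to 118 bases before the start, followed by the paired half-sites, from 88 to 72. None of the matches overlapped another motif. Paired half-sites were found in 0.424% of the 35116 promoter windows in the table, the E-box in 6.34% and the forkhead motif in 2.98%. Of the 12 windows of the 6 genes, 2 held paired half-sites, 2 an E-box and 1 the forkhead motif. The pair was written after these sequences had been seen. Its 2 windows were therefore fixed in advance, and nothing is read from them against the 0.424%. The second E-box window was a downstream start of HK2, with copies beginning 194 and 149 bases before it. The windows of PDK4, IRS2 and PIK3R1 held none of these letters. A match is a description of letters and not a measured binding site.

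PDK4, the kinase that switches off pyruvate dehydrogenase in fasting, was at 1.12 CPM in shHKDC1, 0.439 CPM in shRBBP5 and 1.94 CPM in NTC. It was the lowest of the 6 genes by mean level, on 29, 18 and 85 fragments. In shRBBP5 it was 4.40-fold lower than in NTC (log2 −2.14 [−2.93 to −1.36]), rank 9 from the lowest of 900 and the greatest difference from NTC among the 6 genes in that library. In shHKDC1 the log2 ratio to NTC was −0.79 [−1.45 to −0.17], short of the limit, and −1.06 with total-count scaling, which brings the call. Between the knockdowns, shHKDC1 had 2.55 times the PDK4 level of shRBBP5 (log2 1.35 [0.42 to 2.25]), and the Poisson intervals of those levels, 0.751 to 1.61 and 0.267 to 0.713 CPM, did not overlap.

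**Figure D3:**
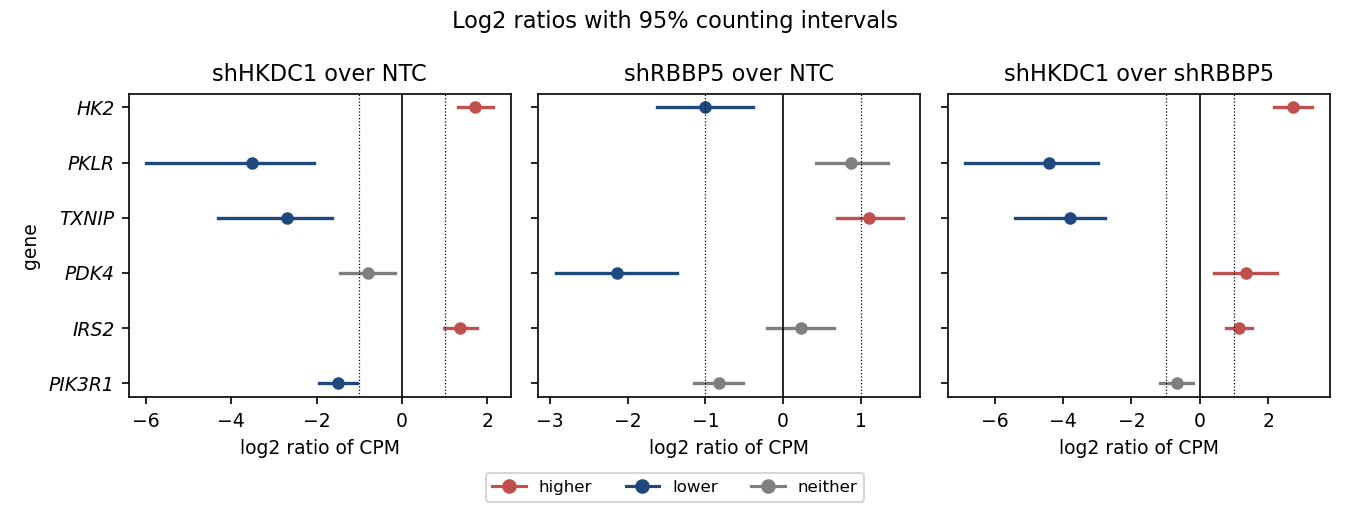
Log2 ratios of CPM with 95% counting intervals for the 6 genes in the 3 comparisons. Dotted lines mark the 2-fold limits, and colours mark genes called higher, lower or neither, with HK2 and TXNIP called in opposite directions in the knockdowns, where the HK2 call in shRBBP5 ends at −0.9998 with DESeq2 size factors and −0.98 with a pseudocount of 5.

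In insulin signalling, IRS2, the docking protein through which the insulin receptor reaches PI3-kinase in liver, was at 5.39 CPM in shHKDC1, 2.45 CPM in shRBBP5 and 2.10 CPM in NTC. The shHKDC1 level, 4.55 to 6.39 CPM by its Poisson interval, lay above both others, whose intervals overlapped. IRS2 was 2.57-fold higher in shHKDC1 than in NTC (log2 1.36 [0.97 to 1.76]). Its ratio for shRBBP5 over NTC was 0.22 [−0.20 to 0.65], so a difference there was not detectable at this depth. Against shRBBP5, the gene was 2.2-fold higher in shHKDC1 (log2 1.14 [0.76 to 1.53]), a call that total-count scaling ended at 0.93. IRS2 has a single NM_ row, NM_003749.3, and the antisense gene AL162497.1 overlaps it.

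PIK3R1, which stabilises and restrains the catalytic subunits of PI3-kinase, was lowest in shHKDC1. It stood at 2.09 CPM in shHKDC1, 3.30 CPM in shRBBP5 and 5.87 CPM in NTC, with no overlap between the interval of 1.57 to 2.72 CPM, that of 2.77 to 3.92 CPM and that of 5.18 to 6.64 CPM. It was 2.81-fold lower in shHKDC1 than in NTC (log2 −1.49 [−1.94 to −1.06]). In shRBBP5 its ratio was −0.83 [−1.14 to −0.52], which excludes 0 but misses the 2-fold limit. All units lay on NM_181523.3, the row of full-length p85 alpha, while the 3 other rows held 0 in every library. IRS2 and PIK3R1, which act in sequence, thus lay on opposite sides of NTC in shHKDC1.

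The knockdowns share the NTC library, so their ratios are given side by side only. For shHKDC1 and shRBBP5 over NTC the log2 ratios were 1.72 and −1.01 for HK2, −3.52 and 0.88 for PKLR, and −2.69 and 1.11 for TXNIP. They were −0.79 and −2.14 for PDK4, 1.36 and 0.22 for IRS2, and −1.49 and −0.83 for PIK3R1. HK2, PKLR and TXNIP had ratios of opposite sign, and PDK4 and PIK3R1 had ratios of the same sign. The interval of IRS2 in shRBBP5 over NTC included 0, so its sign there is not settled. The share of named genes with opposite signs was not computed, and nothing is read from this split. Compared directly, HK2, PDK4 and IRS2 were called higher and PKLR and TXNIP lower in shHKDC1 than in shRBBP5, where 12.4% of the 900 named genes were called higher and 18.6% lower, 31% in all. PIK3R1 was neither in that comparison (−0.66 [−1.15 to −0.20]). The median log2 ratio of the 6 genes was −1.14 in shHKDC1 and −0.30 in shRBBP5 over NTC, against −0.40 and −0.20 for all named genes. For shHKDC1 over shRBBP5 it was 0.24, against −0.16. The medians of the anonymous loci were −0.01 in shHKDC1 and 0.02 in shRBBP5 over NTC, so named genes lay lower than the loci in both. The part of that shift in the ratios of the 6 genes was not tested.

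Levels were compared between the 6 genes per kb of transcript, with lengths from GENCODE v29 transcripts matched to the RefSeq rows without version numbers. In shHKDC1, HK2 led at 0.968 CPM per kb and IRS2 followed at 0.663, with TXNIP at 0.0859 and PKLR at 0.0413 at the bottom. In shRBBP5, TXNIP led at 1.42 CPM per kb and PKLR followed at 0.983, with HK2 at 0.146 and PDK4 at 0.123 at the bottom. In NTC, PIK3R1 led at 0.838 CPM per kb and TXNIP followed at 0.622, with HK2 at 0.293 and IRS2 at 0.258 at the bottom. HK2 thus ranked 1 of 6 in shHKDC1, 5 in shRBBP5 and 5 in NTC, and TXNIP ranked 5, 1 and 2.

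Some neighbours in those orders had overlapping counting intervals. They were PDK4 and PIK3R1, and TXNIP and PKLR, in shHKDC1, and HK2 and PDK4 in shRBBP5. In NTC the intervals of each neighbouring pair overlapped except for PDK4 and HK2.

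**Figure D4:**
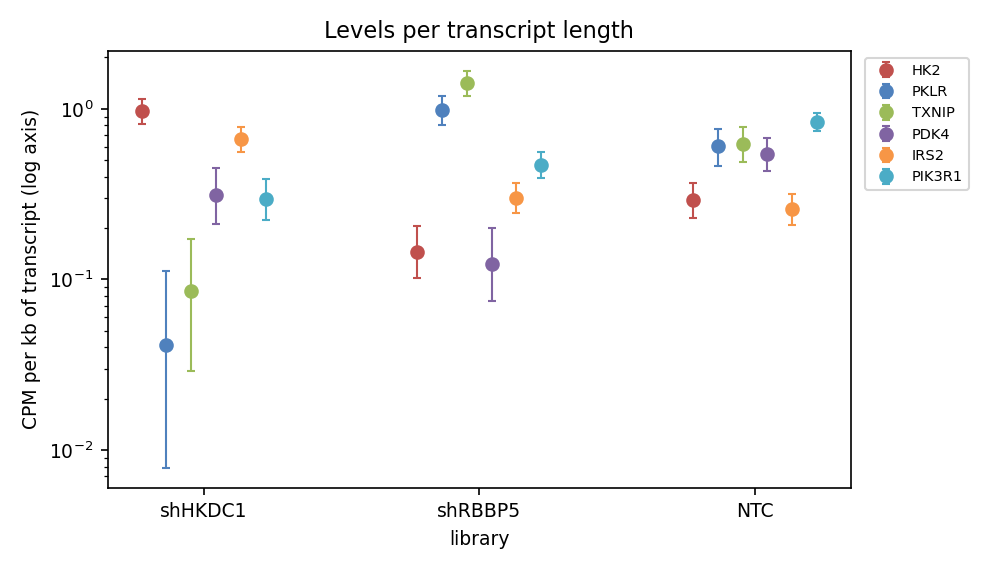
CPM per kb of transcript on a log axis for the 6 genes in the 3 libraries, with exact 95% Poisson intervals on fragments scaled to length. The genes lie closest together in NTC, between 0.258 and 0.838 CPM per kb, and furthest apart in shHKDC1, between 0.0413 and 0.968.

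Among the other 894 named genes, those whose pair of log2 ratios over NTC lay nearest to each gene were found by Euclidean distance over the 3 libraries. For PIK3R1 these were UNC13A, a synaptic vesicle priming gene, at a distance of 0.0135, and CCDC186 at 0.0482. The distances leave out counting error, and the interval of PIK3R1 in shHKDC1 over NTC ran from −1.94 to −1.06. Which gene is nearest is therefore not settled. UNC13A was at 2.23 CPM in shHKDC1, 3.53 CPM in shRBBP5 and 6.32 CPM in NTC, close to PIK3R1 in level too. FAM167A lay near IRS2, at 0.0705. For HK2 they were the somatostatin receptor SSTR5 at 0.0925 and the zinc finger gene ZNF677 at 0.241. SSTR5 was at 3.02 CPM in shHKDC1, 0.458 CPM in shRBBP5 and 0.960 CPM in NTC.

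PDK4 was nearest to MAP9, a microtubule-associated protein, at 0.353, and RAPGEF6 at 0.413. TXNIP and PKLR, at ranks 21 and 12 from the lowest of 900 in shHKDC1 over NTC, had no neighbour as near. Distances between other genes were not compared, so nothing is read from that. BCO2, a carotenoid-cleaving enzyme, at 0.510, and APBA1 at 0.641 came closest to TXNIP, with BCO2 at 0.387 CPM in shHKDC1, 3.36 CPM in shRBBP5 and 1.85 CPM in NTC. The semaphorin receptor PLXNC1 at 0.878 and RABGAP1L at 1.04 came closest to PKLR, with log2 ratios of 0.01 and −0.04 for shRBBP5 over NTC, where that of PKLR was 0.88.

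Of 189 other genes on lists of glucose use and insulin signalling, 39 had all their NM_ rows in the table and 11 reached a mean of 1 CPM. Against NTC, shHKDC1 had 0 of the 11 higher, 4 lower and 7 neither, and shRBBP5 had 1 higher, 2 lower and 8 neither. Over all named genes, 8.67% were called higher and 23.9% lower in shHKDC1, and 2.67% higher and 9.44% lower in shRBBP5. Between the knockdowns, 2 were higher, 3 lower and 6 neither in shHKDC1, where 12.4% of named genes were called higher and 18.6% lower. With so few genes measured, nothing particular to the lists is read from these counts. No gene of gluconeogenesis, of the pentose phosphate pathway or of pyruvate dehydrogenase and its kinases was among the 11, and no further gene of glycolysis. Their median log2 ratio was −0.21 in shHKDC1 and −0.24 in shRBBP5 over NTC, and −0.26 between the knockdowns.

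Glucose transport was represented by SLC2A10, a facilitative transporter, at 0.754 CPM in shHKDC1, 2.22 CPM in shRBBP5 and 2.11 CPM in NTC. It was lower in shHKDC1 than in NTC (log2 −1.48 [−2.22 to −0.73]). PPP1R3E, a subunit that brings protein phosphatase to glycogen, was at 1.87, 4.06 and 6.32 CPM in shHKDC1, shRBBP5 and NTC and was lower in shHKDC1 (−1.76 [−2.24 to −1.32]). PPP1R3B, the related subunit of liver, was neither in any comparison. Its most abundant row alone gave 2.41 in shHKDC1 and 1.97 in shRBBP5 over NTC. That row had a mean below 1 CPM, so nothing is read from these 2 ratios. The TXNIP relative ARRDC3 was at 2.71 CPM in shHKDC1, 4.12 CPM in shRBBP5 and 1.77 CPM in NTC, and was higher in shRBBP5 (1.22 [0.83 to 1.63]). That call ended at 0.28 when its noncoding NR_ rows were added, and in shHKDC1 ARRDC3 was at 0.62 [0.13 to 1.11], on the other side of NTC from TXNIP, but −2.58 on its most abundant row alone.

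Downstream of insulin, the adaptor GAB1 was lower in shHKDC1 than in NTC (−1.07 [−1.55 to −0.62]), at 1.98 against 4.17 CPM, a call that upper-quartile scaling ended at −0.97. PIK3CA, the catalytic partner of p85 alpha, was neither in either knockdown, at −0.21 [−0.54 to 0.10] and −0.63 [−0.94 to −0.32] in shHKDC1 and shRBBP5. TRIB2, a pseudokinase that binds AKT, was at 2.19 CPM in shHKDC1, 0.683 CPM in shRBBP5 and 2.46 CPM in NTC, and was lower in shRBBP5 (−1.84 [−2.53 to −1.25]). TBC1D4, the AKT substrate that controls glucose transporter traffic, was also lower there (−1.16 [−2.08 to −0.33]). Both were higher in shHKDC1 than in shRBBP5, as HK2, PDK4 and IRS2 were.

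Of 14 known FOXO targets listed outside the 6 genes, 4 had all their NM_ rows and 3 reached a mean of 1 CPM. In shHKDC1 over NTC 0 of the 3 were higher, 1 lower and 2 neither, where 8.67% of named genes were called higher and 23.9% lower. In shRBBP5 over NTC all 3 were neither, where 12.1% of named genes were called. SESN1 was at 2.33 CPM in shHKDC1, 9.0 CPM in shRBBP5 and 6.37 CPM in NTC, and was lower in shHKDC1 (−1.45 [−1.89 to −1.05]), a call that ended at −0.51 on its most abundant row alone. CCNG2 (0.60) and BCL2L11 (0.42, or −2.51 on its most abundant row alone) were neither in shHKDC1, and IRS2, PDK4 and TXNIP of the same list stood at 1.36, −0.79 and −2.69. The list thus held genes on both sides of NTC in the same library. With so few of its genes measured, and the members chosen by their ratios, nothing is read from that.

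**Figure D5:**
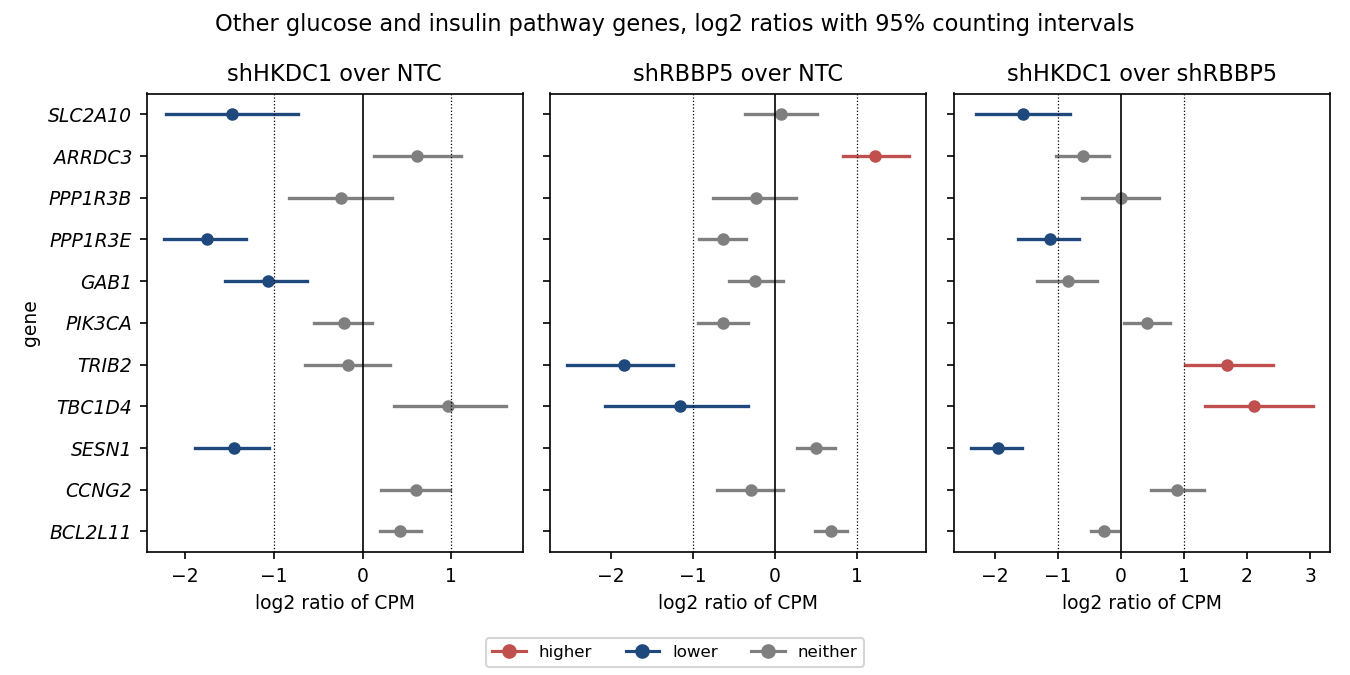
Log2 ratios of CPM with 95% counting intervals for 11 other genes of glucose use and insulin signalling in the 3 comparisons, with dotted lines at the 2-fold limits. TRIB2 and TBC1D4 are lower in shRBBP5 than in NTC and higher in shHKDC1 than in shRBBP5, and SLC2A10, PPP1R3E and SESN1 are lower in shHKDC1 than in either other library, with PPP1R3E at −0.999 against shRBBP5 with upper-quartile factors and SESN1 at −0.51 against NTC on its most abundant row.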

How the data were processed

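RNA of 3 PLC libraries was analysed, 1 each for shHKDC1, shRBBP5 and NTC. The deposited table holds expected counts (estimated counts, whole numbers) per row, not scaled for depth or length. The submitters' processing notes list HISAT2 2.2.1, StringTie 1.3.4, DESeq2 1.28.1 and hg19, with no step assigned to any of them. Per the labels' protocols, RNA was extracted with TRIzol and libraries used HiScript III RT SuperMix. The column names NTC, shHD and shRB were matched to the sample titles by their abbreviations.

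RefSeq rows were matched to symbols without version number in the GRCh38.p14 table, which named 19351 of 19383 NM_ rows, and NM_ rows were summed per gene. TMM factors (edgeR 4.0.16 in R 4.3.3) were 0.895 for shHKDC1, 1.03 for shRBBP5 and 1.08 for NTC. Log2 ratios used a pseudocount of 0.5 units. At this depth 3 fragments are 0.116, 0.0752 and 0.0686 CPM in shHKDC1, shRBBP5 and NTC. No molecular identifiers were counted, so fragments are not independent molecules and intervals cover counting error only. That 1 fragment is 4 units is an assumption made because 432, 535 and 525 rows held 4 units in these libraries, against 313, 314 and 332 with 3 and 213, 244 and 235 with 5. The interval rule was run on simulated Poisson counts at the same 4 units per fragment. That simulation cannot test the 4-unit assumption or variation between libraries. Other steps used Python 3.11.15, NumPy 2.4.6, SciPy 1.17.1 and pandas 2.3.3.

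The members and gene lists were chosen with earlier results of these data known. Named were the 6 genes, list genes with a mean of at least 1 CPM (at most 4 a list), and the 2 nearest genes to each member, of which 1 is not reported here. The choice of HCN3 and of the single marker genes followed a look at their values. The alternatives tried were total counts, DESeq2 1.42.0 size factors and upper-quartile factors, a pseudocount of 5, other CPM minimums, units taken as reads, libraries without the 20 most abundant rows, NR_ rows added and the most abundant row alone. Protein comparisons were not made.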

Additional observations from a re-analysis of the deposited data

How the results depend on the processing

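Of 159 recomputed ratios of the 6 genes, 93 took another value. Of these, 0 changed sign and all stayed within their counting intervals, while 4 calls changed. The others were identical, because NR_ rows, the CPM minimum and the read unit did not touch these ratios and most genes have their units on 1 row. Total counts brought the call of PDK4 in shHKDC1 over NTC (−1.06) and ended that of IRS2 in shHKDC1 over shRBBP5 (0.93). For HK2 in shRBBP5 over NTC the call ended with size factors from DESeq2 (−0.9998) and with a pseudocount of 5 units (−0.98), leaving 1 higher and 1 lower there in place of 1 and 2. With total counts the median over all features was −0.30, in place of −0.03, in shHKDC1 over NTC, and −0.25, in place of −0.04, between the knockdowns. They took the higher share of called named genes from 26.6% to 15.7% and from 40.1% to 26.7% in these comparisons, and upper-quartile factors took the second to 50%. Of the 11 other pathway genes, upper quartiles gave 1 higher and 3 lower in shHKDC1 over NTC and 3 higher and 2 lower between the knockdowns. With those factors 94 of 901 named genes were higher and 178 lower in the first comparison. Between the knockdowns 131 were higher and 131 lower. With no CPM minimum, 8 of 29 pathway genes were called in shHKDC1 over NTC and 9 of 29 between the knockdowns. At a mean of at least 5 CPM, 2 pathway genes were left, and none of the 6 genes was left. In shHKDC1 over NTC, shRBBP5 over NTC and shHKDC1 over shRBBP5, 1, 0 and 1 of these pathway genes were called. The share over all named genes was not computed at either minimum, so nothing is read from these counts. On its most abundant row alone PKLR had a mean below 1 CPM and gave no value. No paired analysis was possible because each group is 1 library. The 3 to 6 fragments of PKLR and TXNIP in shHKDC1 limit the size of those differences.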

Other observations

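Some other genes of the glucose and insulin lists lay below the mean of 1 CPM and were named after their values had been seen. SLC2A2, the glucose transporter of hepatocytes, had 0 units in shHKDC1, 0.658 CPM in shRBBP5 and 0.657 CPM in NTC. These levels rest on 0, 26 and 29 fragments. INPP5D, a phosphoinositide phosphatase, also had 0 units in shHKDC1, 0.0877 CPM in shRBBP5 and 0.263 CPM in NTC, on 0, 4 and 12 fragments. The TXNIP relative ARRDC4 was at 0.290 CPM in shHKDC1, 0.508 CPM in shRBBP5 and 0.800 CPM in NTC (log2 −1.44 [−2.69 to −0.24] for shHKDC1 over NTC).

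GCKR was at 0.0387 CPM in shHKDC1, on 1 fragment, 0.382 CPM in shRBBP5 and 0.126 CPM in NTC. Its log2 ratio was 1.58 [0.01 to 3.11] for shRBBP5 over NTC. PYGM, the muscle glycogen phosphorylase, was at 0.464 CPM in shHKDC1, 0.150 CPM in shRBBP5 and 0.297 CPM in NTC, with a log2 ratio of 1.61 [0.10 to 3.32] for shHKDC1 over shRBBP5. The hexokinase gene HK3 had 0 units in every library.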
